A study of Mus musculus with 6 samples.

Results

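The E2F and Myb transcription factors drive and restrain the transcription of cell cycle genes. The set described here is made of 10 genes, taken by symbol from the deposited expression table and summed over all table rows of a symbol: E2f1, E2f2, E2f3, E2f4, E2f5, E2f6, E2f7, E2f8, Myb and Mybl2. All 10 were found among 21456 gene symbols with values. They were measured by mRNA sequencing in ureteric epithelium, the branching duct of the embryonic kidney, from CFW mouse embryos at stage E16.5. Tip cells carried a red Wnt11 reporter and a green Hoxb7 reporter (Wnt11RFP+;Hoxb7GFP+). Stalk cells came from the same epithelium and carried the Hoxb7 reporter without the Wnt11 reporter (Wnt11RFP-;Hoxb7GFP+). There were 3 libraries per group. The labels do not say whether they came from separate animals or litters, so the error behind each p-value is that among libraries and could be purely technical. Tip and stalk are defined by the reporters alone, so a green cell without the red reporter was sorted as stalk, whatever its place in the duct. Values are RPKM (read number divided by transcript length and by library size) as computed by the authors, and means are given ± SD over n = 3 libraries.

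E2F proteins bind the promoters of genes for DNA synthesis and cell cycle progression. E2F1, E2F2 and E2F3 are known mainly as activators, held back by the retinoblastoma protein until cyclin-dependent kinases inactivate it. E2F4 and E2F5 act mainly with the related pocket proteins p107 and p130 to repress these genes in resting cells, and E2F6 works with Polycomb complexes and does not bind pocket proteins. E2F7 and E2F8, the atypical members, bind DNA without a DP partner and repress E2F targets late in S phase. B-Myb, encoded by Mybl2, joins the MuvB complex to switch on genes of G2 and mitosis, and c-Myb, encoded by Myb, is best known for keeping blood progenitors proliferating and is also expressed in some epithelia. In the embryonic kidney, the ureteric tip holds the dividing progenitors of the collecting duct tree.

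Several genes of the set carry the letters of E2F or cell cycle elements in their own promoters. The bases ahead of the RefSeq start site are shown for 5 of the genes with such letters. E2f6, which has none, is shown as an example of a window without them. RefSeq promoter windows (build GRCm38.p6, the build of mm10) were matched for 8 of the 10 genes. Capitals mark an E2F core (GGCGGGA), the start of the longer E2F consensus (the word TTTGGCG, the word TTTCCCG, the word TTTCGCG or else TTTGCCG) and the cell cycle homology region, or CHR (TTTGAA), each searched on either strand, with overlaps allowed, over the 250 bases before the start site. The stretches below are 100 bases long and read 5′ to 3′ on the gene's own strand. All end at the base before the start site except that of E2f7, which ends 131 bases before it.
Mybl2, chr2:163054535-163054634, plus strand: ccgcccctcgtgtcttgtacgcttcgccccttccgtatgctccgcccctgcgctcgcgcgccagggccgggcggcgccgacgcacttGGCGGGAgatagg
Myb, chr10:21160985-21161084, minus strand: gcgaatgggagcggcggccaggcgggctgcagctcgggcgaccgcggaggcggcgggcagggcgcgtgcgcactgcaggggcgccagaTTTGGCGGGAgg
E2f3, chr13:29986064-29986163, minus strand: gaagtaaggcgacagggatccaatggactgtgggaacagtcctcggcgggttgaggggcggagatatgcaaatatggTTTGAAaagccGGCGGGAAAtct
E2f7, chr10:110745209-110745308, plus strand: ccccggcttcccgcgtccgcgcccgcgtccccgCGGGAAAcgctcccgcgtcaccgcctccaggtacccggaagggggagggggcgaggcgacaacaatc
E2f8, chr7:48881597-48881696, minus strand: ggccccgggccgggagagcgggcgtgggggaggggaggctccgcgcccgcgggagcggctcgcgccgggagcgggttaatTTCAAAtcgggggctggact
E2f6, chr12:16810865-16810964, plus strand: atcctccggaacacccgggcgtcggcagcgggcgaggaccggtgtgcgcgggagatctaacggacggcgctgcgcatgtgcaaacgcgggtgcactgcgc

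An E2F core or consensus start was found in 4 of the 8 genes. It lay 13 bases before the start site in Mybl2, 12 bases before it in Myb and in E2f3, and 197 bases before it in E2f7. In both Myb and E2f3 the core and a consensus start overlap, and in E2f3 the CHR letters lie 23 bases before the start. A second window of E2f3 held the core 78 bases before its start. Of all 32851 promoter windows of the RefSeq table, 9.75% held the core, 5.51% held a consensus start and 16% held the CHR letters. These shares are per window and per motif. The 8 genes had 10 windows, and the share of all genes with either E2F motif was not computed, so 4 of 8 has no like background. The CHR letters were also found in E2f8, 20 bases before the start, and in a second window of E2f2, 31 bases before its start. The windows of E2f1 and E2f6 held none of these letters. The E2f1 window lies within the annotated gene, so the bases ahead of the annotated gene were not searched for E2f1. The E2f1 and E2f2 windows are not printed. E2f1 was among the genes that changed most (log2 fold change 1.91) and E2f6 among those that changed least (0.53), and no relation between these letters and the size of the change was tested. Motifs were chosen with the sequences in view, and a match is a description of the letters and not of a bound site.

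All 10 genes averaged 1 RPKM or more over the 6 libraries and were tested. The test was limma on log2(RPKM + 1) over 12532 genes, with the Benjamini-Hochberg adjustment and a threshold of 0.05, and the log2 fold changes below are tip minus stalk on that scale, which understates the change of low genes. In tip, 9 of the 10 genes were higher, and 0 were higher in stalk. Of all tested genes 26.1% were called higher in tip, 22.5% were called higher in stalk, and 48.6% were called in either direction. The median log2 fold change was 1.17 over the 10 genes and 0.05 over all tested genes. In each of the 10 genes every tip library lay above every stalk library, which held for 31.3% of all tested genes. The members therefore stood toward tip more often than the background did, and they differed widely in the size of the change, from 0.10 for E2f5 to 2.14 for E2f7. In bulk libraries such as these, fewer cells that transcribe a gene and less RNA per cell cannot be told apart.

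**Figure D1:**
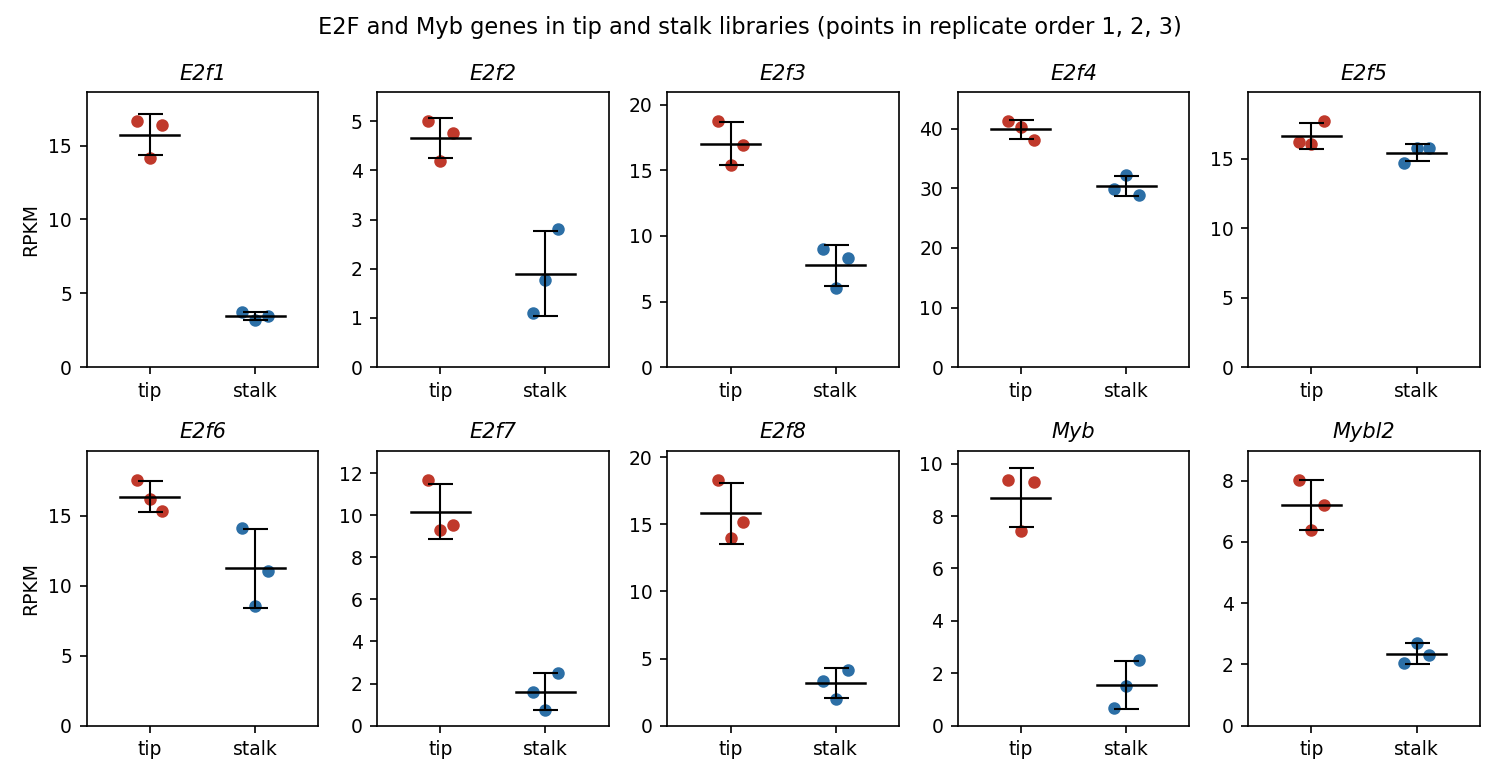
RPKM of each of the 10 genes (vertical axes, linear from 0, scaled separately) in the 3 tip libraries (red) and the 3 stalk libraries (blue), with points placed in replicate order and black bars for the mean and SD. E2f1, E2f7, E2f8 and Myb have tip points far above the stalk points, whereas the E2f5 points nearly meet, at 16.0 RPKM in the lowest tip library and 15.8 RPKM in the highest stalk library.

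The sorted cells carried the markers of their labels. All 6 tip markers were higher in tip and all 6 stalk markers were higher in stalk. Wnt11, whose reporter defined the sort, is 1 of the 6 tip markers, so its direction was set by the sort. Both lists were written with earlier results of these data known. On the leading principal component (82.9% of the variance) the groups separated, and on the next (9.21%) tip replicate 2 and stalk replicate 1 lay on the negative side and the remaining 4 libraries on the positive side. Markers of endothelium also differed between the groups, with 10 of 11 tested genes called higher in stalk and Eng higher in tip (log2 fold change 0.38, limma adjusted p = 0.0486). Over all tested genes the shares were 22.5% called higher in stalk and 26.1% called higher in tip. Summed over the 12 endothelial markers, RPKM ranged from 36.5 to 39.1 in tip and from 80.4 to 128 in stalk, and none of the 12 was at 0 in every library. Of the 10 nephron progenitor markers 2 were tested and both were higher in tip (1 without tip replicate 2), with sums of 5.70 to 8.70 RPKM in tip and 3.01 to 4.65 RPKM in stalk, and 0 of 4 tested stromal markers were called. The part of endothelial and nephron progenitor cells in the results below was not tested. The Eng call was lost without any 1 library other than tip replicate 2, for example without tip replicate 1 (0.27, adjusted p = 0.178). Egfl7, among the endothelial genes called higher in stalk (-0.43, limma adjusted p = 0.0406), lost its call without any 1 library other than stalk replicate 2. With only the highest row of each symbol in place of the sum, Egfl7 was called higher in tip (1.14, limma adjusted p = 0.00559).

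The activator genes E2f1, E2f2 and E2f3 were all higher in tip. E2f1 encodes an activator tied to entry into S phase. It had 16.6, 14.2 and 16.4 RPKM in tip replicates 1, 2 and 3, against 3.73, 3.16 and 3.48 RPKM in stalk replicates 1, 2 and 3. The groups lay far apart and the libraries of each group lay close together. The mean was 15.7 ± 1.38 RPKM in the tip libraries and 3.46 ± 0.284 RPKM in the stalk libraries, which is 4.55-fold (log2 fold change 1.91 with SE 0.12, adjusted p = 1.48e-05 by limma). E2f1 had the lowest adjusted p of the set. It lies on chromosome 2 (154559407 to 154569892, minus strand, mm10, GENCODE M21).

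E2f3, which like E2f1 encodes an activator bound by the retinoblastoma protein, had 18.7, 15.4 and 16.96 RPKM in the tip libraries and 8.98, 6.02 and 8.35 RPKM in the stalk libraries. Every tip library exceeded the highest stalk library, by a smaller margin than for E2f1. The ratio of means was 2.19, and the log2 fold change was 1.05 (SE 0.16, adjusted p by limma = 0.000793). E2f2, the least abundant E2F gene in tip, had 4.996, 4.20 and 4.76 RPKM in the tip libraries and 1.10, 1.78 and 2.82 RPKM in the stalk libraries. Its stalk libraries spread 2.56-fold between lowest and highest. Its ratio of means was 2.45, and the log2 fold change was 1.004 (SE 0.22, adjusted p by limma = 0.00594). That value ranged from 0.79 without stalk replicate 1 to 1.22 without stalk replicate 3 and stayed past the threshold.

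The atypical repressor genes E2f7 and E2f8 had the largest and the next largest log2 fold change of the set. E2f7 had 11.7, 9.29 and 9.52 RPKM in tip, against 1.59, 0.762 and 2.51 RPKM in stalk. E2f8 stood at 18.3, 13.9 and 15.2 RPKM in tip, against 3.36, 1.995 and 4.16 RPKM in stalk. Both genes followed the same order of libraries in stalk, with replicate 2 lowest and replicate 3 highest. The mean of E2f7 was 10.2 ± 1.31 RPKM in the tip libraries and 1.62 ± 0.873 RPKM in the stalk libraries, or 6.27-fold (log2 fold change 2.14, SE 0.24, limma adjusted p = 0.000196). The mean of E2f8 was 15.8 ± 2.25 RPKM in tip and 3.17 ± 1.09 RPKM in stalk, or 4.99-fold (log2 fold change 2.04, SE 0.21, limma adjusted p = 0.000113). Only 1.08% of tested genes had a larger log2 fold change toward tip than E2f7, and 1.25% had a larger one than E2f8. E2f7 lies on chromosome 10 (110745439 to 110787384, plus strand) and E2f8 on chromosome 7 (48866429 to 48881596, minus strand). A transcript on the opposite strand, Gm2788, overlaps 3639 bases of E2f8 and stood between 0.183 and 1.06 RPKM, and no source used here says whether reads were counted by strand.

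The repressor genes E2f4 and E2f5 differed little between the groups. E2f4 was the most abundant gene of the set in both groups, with 41.2, 40.2 and 38.2 RPKM in the tip libraries and 29.9, 32.1 and 28.9 RPKM in the stalk libraries. Its 1.31-fold ratio of means was small but larger than the spread between libraries (log2 fold change 0.38, SE 0.09, limma adjusted p = 0.00847). E2f5 had 16.2, 16.0 and 17.7 RPKM in the tip libraries and 14.7, 15.8 and 15.8 RPKM in the stalk libraries. The groups did not overlap but nearly touched, and the gene was the 1 member that did not pass the test (log2 fold change 0.10, SE 0.10, limma adjusted p = 0.424). E2f5 lies on chromosome 3 (14578641 to 14606309, plus strand) and E2f4 on chromosome 8 (105297663 to 105305370, plus strand).

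E2f6, which encodes the Polycomb-linked repressor, had 17.5, 16.2 and 15.3 RPKM in the tip libraries and 14.1, 8.53 and 11.1 RPKM in the stalk libraries. Stalk replicate 1 came close to the tip libraries. The ratio of means was 1.46, and the log2 fold change was 0.53 (SE 0.17, adjusted p by limma = 0.0309). This call was the least stable of the set. It was lost without tip replicate 1 (0.48, adjusted p = 0.0999), tip replicate 2 (0.53, 0.0610), tip replicate 3 (0.57, 0.0583), stalk replicate 2 (0.36, 0.0766) or stalk replicate 3 (0.53, 0.0752), and held without stalk replicate 1 (0.69, adjusted p = 0.00524). It was also lost with the libraries scaled by their median ratio (0.49, adjusted p = 0.0552).

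Both Myb genes were higher in tip. Mybl2, the B-Myb gene of the MuvB complex, stood at 8.02, 6.40 and 7.21 RPKM in tip, against 2.05, 2.71 and 2.30 RPKM in stalk. The libraries of each group were close to each other, and the ratio of means was 3.06 (log2 fold change 1.29, SE 0.15, limma adjusted p = 0.000187). Myb stood at 9.37, 7.41 and 9.31 RPKM in tip, against 0.660, 1.504 and 2.49 RPKM in stalk. Its stalk values spread 3.78-fold, the widest of the set, and its ratio of means was 5.603 (log2 fold change 1.98, SE 0.26, limma adjusted p = 0.000402). With 1 library left out, the log2 fold change of Myb ranged from 1.71 to 2.24. Myb lies on chromosome 10 (21124935 to 21160984, minus strand) and Mybl2 on chromosome 2 (163054687 to 163084688, plus strand).

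Since Myb is a gene of blood progenitors, markers of blood were set beside it. Of 12 genes of erythroid cells and haematopoietic progenitors, 7 had values and 4 were tested, of which Kit and Cd34 were higher in stalk and 0 were higher in tip. Their summed RPKM ranged from 21.3 to 81.4 in tip and from 35.6 to 122 in stalk. Immune markers summed to between 15.6 and 19.2 RPKM in tip and between 12.5 and 19.5 RPKM in stalk. Of the 4 tested, Cd68 and Coro1a were higher in tip, Laptm5 was higher in stalk and Ptprc was not called (-0.38, limma adjusted p = 0.143). Ptprc was called higher in stalk without stalk replicate 1 (-0.58, limma adjusted p = 0.0240), which makes the count toward stalk 2. Both sums overlapped between the groups. The erythroid sum varied with the globin gene Hba-a1, at 12.6, 7.57 and 45.9 RPKM in tip and 5.56, 50.8 and 20.4 RPKM in stalk, whereas Kit and Cd34 were lower in every tip library than in any stalk library. Endothelial markers were higher in stalk too (10 of 11 tested genes), and which cells the Kit and Cd34 values came from was not tested. The background of 26.1% called higher in tip and 22.5% called higher in stalk applies to both lists. The part of blood cells in the Myb values was not tested.

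**Figure D2:**
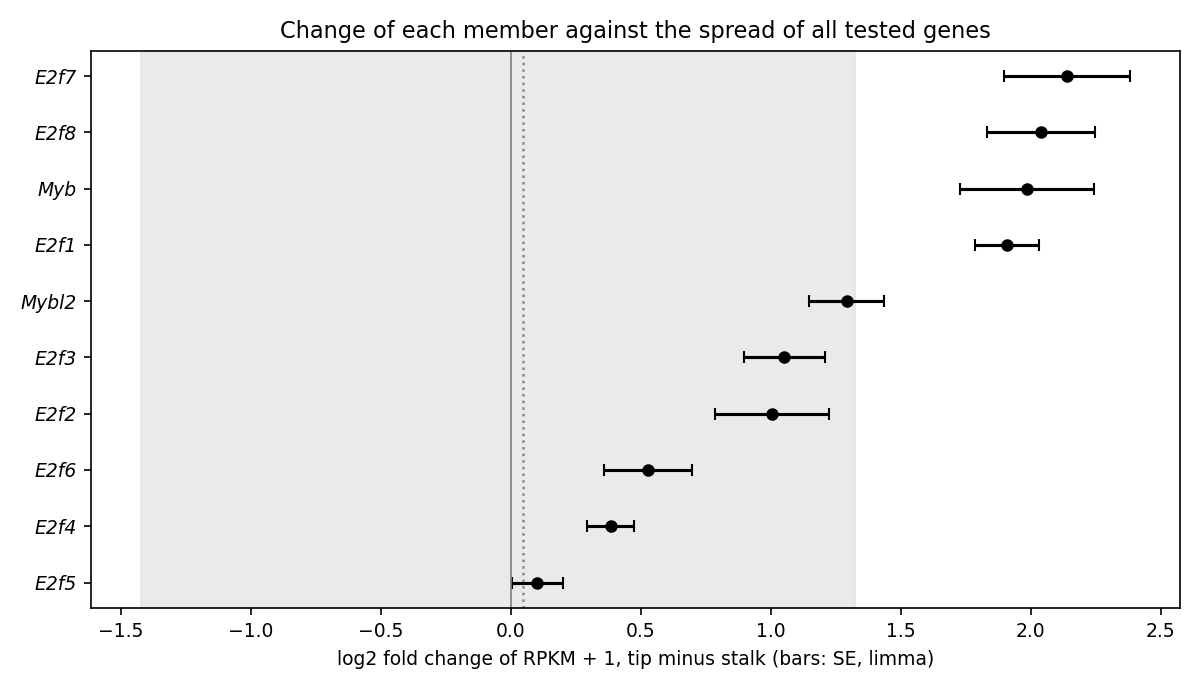
Log2 fold change of each gene (points, tip minus stalk on log2(RPKM + 1), limma) with its SE (bars). The grey band spans the 5th to 95th percentile of all tested genes, from -1.43 to 1.32, and the dotted line is their median at 0.05. E2f7, E2f8, Myb and E2f1 lie beyond the band, Mybl2 lies at its edge, and E2f5 lies next to the median.

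RPKM is scaled to transcript length, so levels of different genes can be set side by side. In tip, E2f4 stood above all others at a mean of 39.9 RPKM. Below it, E2f3 (17.03 RPKM), E2f5 (16.6 RPKM), E2f6 (16.4 RPKM), E2f8 (15.8 RPKM) and E2f1 (15.7 RPKM) formed a group in which each neighbour overlapped the next. E2f7 (10.2 RPKM), Myb (8.70 RPKM) and Mybl2 (7.21 RPKM) followed, again with overlap between neighbours, and E2f2 (4.65 RPKM) was lowest. In stalk the order was different below E2f4 (30.3 RPKM). E2f5 (15.4 RPKM) stood apart from E2f6 (11.2 RPKM), which overlapped E2f3 (7.78 RPKM), and then came a gap. E2f1 (3.46 RPKM), E2f8 (3.17 RPKM), Mybl2 (2.35 RPKM), E2f2 (1.90 RPKM), E2f7 (1.62 RPKM) and Myb (1.55 RPKM) each overlapped their next neighbour.

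The makeup of the E2F family shifted with these changes. The 8 E2F genes together summed to 145, 129 and 134 RPKM in tip and to 77.5, 70.2 and 77.1 RPKM in stalk. The repressor genes E2f4 and E2f5 made up 41.5 ± 1.98% of that sum in tip and 61.3 ± 6.07% in stalk. The activator genes E2f1, E2f2 and E2f3 made up 27.4 ± 1.22% in tip and 17.5 ± 1.72% in stalk. E2f7 and E2f8 made up 19.0 ± 1.43% in tip and 6.32 ± 2.36% in stalk. Within a library such shares do not depend on library scaling. By single gene, E2f1, E2f3, E2f7 and E2f8 had a higher share in every tip library than in any stalk library, and E2f4 and E2f5 a higher share in every stalk library. The shares of E2f2 and E2f6 overlapped. These shares are a description, with no test.

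**Figure D3:**
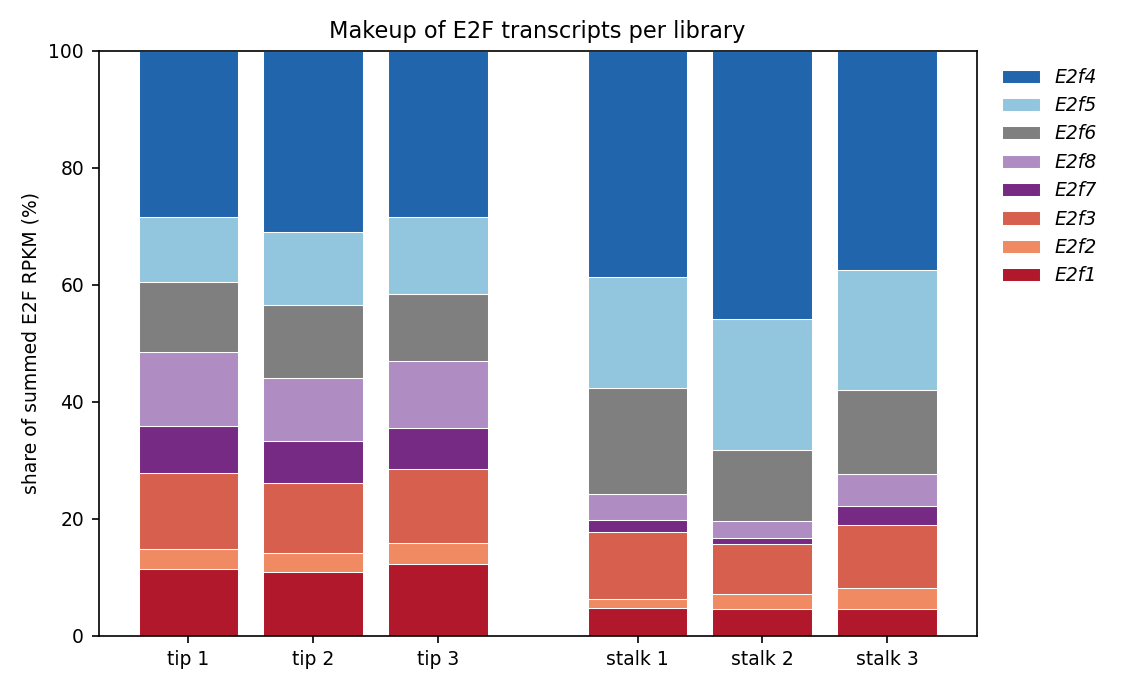
Share of each E2F gene in the summed RPKM of the 8 E2F genes (vertical axis, percent) in each of the 6 libraries, tip at the left and stalk at the right. The blue segments of E2f4 and E2f5 take 39.5 to 43.5% in tip libraries and 57.6 to 68.3% in stalk libraries, while the purple segments of E2f7 and E2f8 take 17.95 to 20.6% in tip and 3.93 to 8.65% in stalk.

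In tip, replicate 1 was the highest library for 9 of the 10 genes and replicate 2 the lowest for 8, whereas E2f4 and E2f6 were lowest in replicate 3. The mean log2(RPKM + 1) of G1/S target genes was 4.97, 4.71 and 4.88 in tip replicates 1, 2 and 3, so the targets followed the same order. How many of all tested genes share this order was not computed, so it is not a result about the set. In stalk no single library led. Replicate 3 was highest for E2f2, E2f7, E2f8 and Myb, replicate 1 for E2f1, E2f3 and E2f6, and replicate 2 for E2f4, E2f5 and Mybl2. Stalk replicate 3 also had the most Wnt11 of the stalk libraries, at 24.5 RPKM, with 1.92 RPKM in replicate 1 and 8.67 RPKM in replicate 2, against 930, 423 and 726 RPKM in tip. The part of residual Wnt11-expressing cells in the stalk values was not tested.

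Of the 10 genes, 7 had more than 1 row in the table, with no transcript identifier on any row. A second row carried much of the sum in every library for E2f8, from 31.9 to 45.9% in tip and from 32.5 to 67.1% in stalk, and in single libraries for other genes, such as 55.6% of E2f7 in stalk replicate 2 and 28.9% of E2f1 in stalk replicate 1. Its leading row had 9.88, 9.48 and 9.13 RPKM in tip, against 1.80, 0.656 and 2.81 RPKM in stalk. Its next row stood at 8.41, 4.46 and 6.03 RPKM in tip, against 1.56, 1.34 and 1.35 RPKM in stalk. Both rows were therefore higher in every tip library, and the spread between stalk libraries lay in the leading row. In E2f1 the smaller row held 3.02, 2.02 and 1.42 RPKM in tip and 1.08, 0.360 and 7.79e-06 RPKM in stalk. E2f7 had 9 rows, of which the leading one held 8.29 ± 0.647 RPKM in the tip libraries and 1.22 ± 0.826 RPKM in the stalk libraries. How reads shared between rows were handled is not given in the sources, so the split within a gene is less certain than the sum.

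The known targets of these factors were examined from lists. Of 32 G1/S genes regulated by E2F, all were tested and 32 were higher in tip; their median log2 fold change was 1.63. They ranged from Gins2 (0.92), a subunit of the replicative helicase, and the histone mRNA-binding gene Slbp (0.94) to Chaf1b (2.02) and Mcm5 (2.03). Of 26 G2/M genes regulated by B-Myb and Foxm1, all were tested and 26 were higher in tip, with a median of 1.62. Top2a (2.167), the topoisomerase of dividing cells, and the checkpoint kinase gene Bub1 (2.14) changed most, and the kinesin gene Kif23 (0.69) least. The background of 26.1% called higher in tip applies here too, and the lists hold genes chosen with earlier results of these data known.

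**Figure D4:**
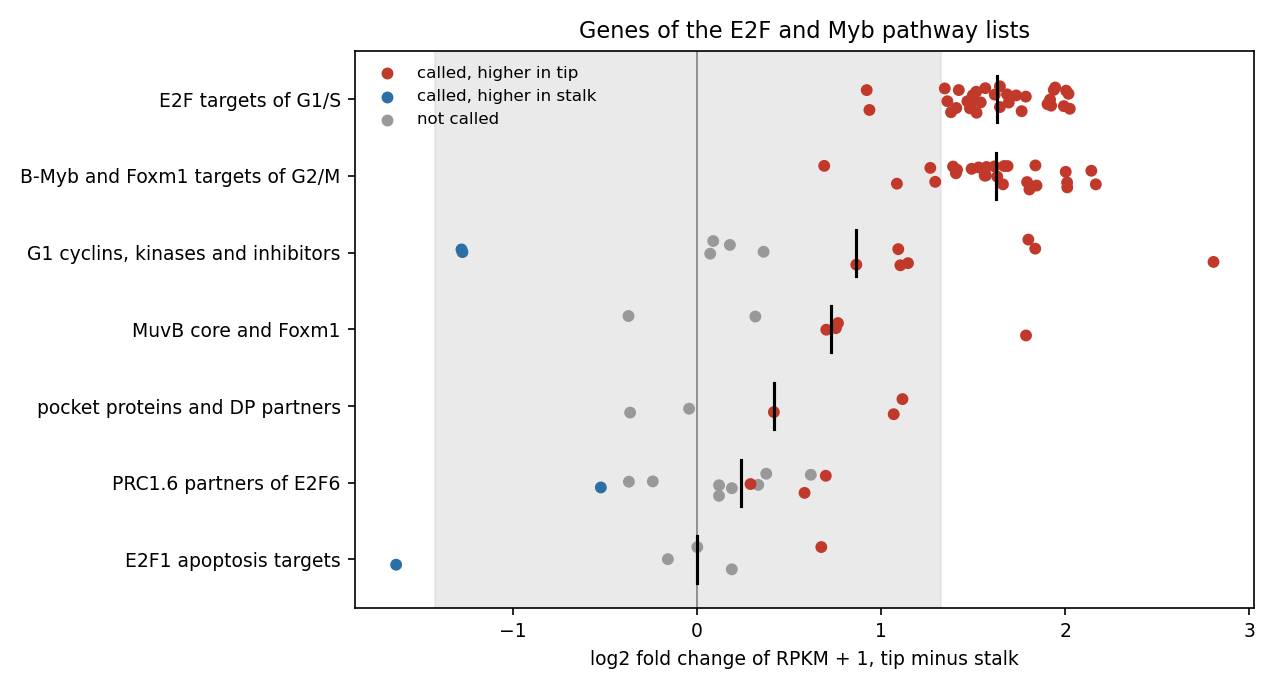
Log2 fold change (horizontal axis, tip minus stalk on log2(RPKM + 1)) of each tested gene in 7 pathway lists, with red points called higher in tip, blue points called higher in stalk, grey points not called and black bars at the list medians. The grey band spans the 5th to 95th percentile of all tested genes. The G1/S and G2/M target lists lie wholly to the right of 0, whereas the E2F6 partner and apoptosis lists straddle it.

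To compare each factor with its targets, the mean log2(RPKM + 1) of the target list was subtracted from that of the factor within each library. This nearly removes library scaling and asks whether the factor changed more or less than its targets. Of the E2F genes, 3 gained on the G1/S targets in tip: E2f1 (tip minus stalk 0.28), E2f7 (0.51) and E2f8 (0.41). In each of these all 3 tip libraries lay above all 3 stalk libraries. The other 5 fell behind their targets, by 0.58 for E2f3, 0.62 for E2f2, 1.10 for E2f6, 1.25 for E2f4 and 1.53 for E2f5. Against the G2/M targets, Mybl2 dropped by 0.33 and Myb gained 0.36. All of these gave p = 0.1 in the exact two-sided permutation test except Myb, for which a stalk library overlapped tip and p = 0.2. With 3 libraries against 3, 0.1 is the smallest p possible, so none can pass 0.05, before any adjustment over the 10 comparisons. The log2(RPKM + 1) scale understates the change of low genes. Mybl2 and E2f2 lay below the mean of their targets, so part of their drops of 0.33 and 0.62 may come from the scale. The sign of both held with each alternative pseudocount.

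**Figure D5:**
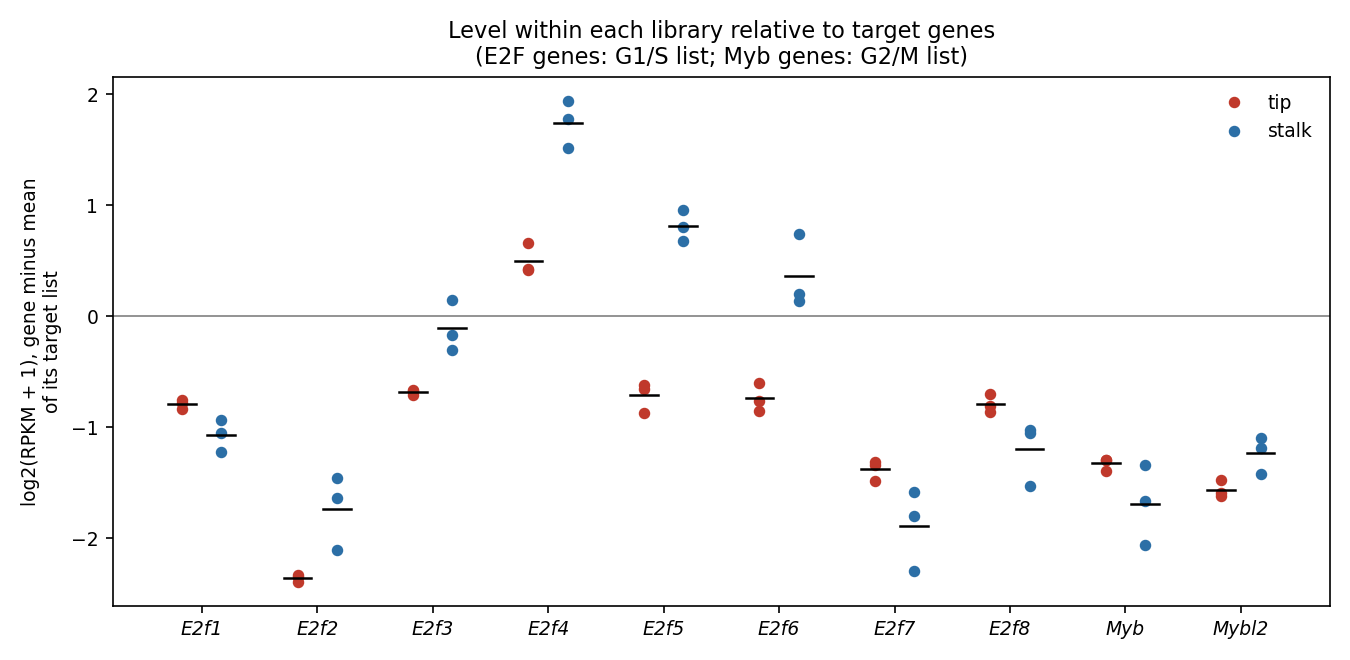
Level of each gene within a library relative to its targets (vertical axis, log2(RPKM + 1) of the gene minus the mean over the 32 G1/S targets for E2F genes or the 26 G2/M targets for Myb genes), with tip libraries in red at the left of each pair, stalk libraries in blue and black bars at the means. E2f4, E2f5 and E2f6 sit above 0 in stalk, at means of 1.74, 0.81 and 0.36, and well below that in tip, at 0.50, -0.71 and -0.74, whereas E2f1, E2f7 and E2f8 sit higher in tip.

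Partners of E2F proteins changed unevenly. Of the 5 pocket protein and DP genes, 3 were higher in tip and 0 in stalk. The background over all tested genes was 26.1% called higher in tip and 22.5% called higher in stalk. Tfdp1, which encodes the main DP partner of E2F proteins, had 26.4, 21.3 and 21.3 RPKM in the tip libraries and 8.58, 10.8 and 10.8 RPKM in the stalk libraries (log2 fold change 1.116, limma adjusted p = 0.000276). Rbl1, which encodes p107 and is itself an E2F target, had 13.5 ± 1.86 RPKM in the tip libraries and 5.87 ± 0.226 RPKM in the stalk libraries (1.07). Tfdp2 rose by 0.42, a call lost without tip replicate 1 (0.41, adjusted p = 0.0507) or tip replicate 3 (0.38, adjusted p = 0.0582), with the replicate block (adjusted p = 0.0526) and with the highest row per symbol (0.53, adjusted p = 0.122). Rb1 (-0.04, adjusted p = 0.828) and Rbl2, which encodes p130 (-0.36, adjusted p = 0.0621), were not called, although every stalk library held more Rbl2 than any tip library. Rbl2 was called higher in stalk without tip replicate 3 (-0.47, adjusted p = 0.0408) and with median-ratio scaling (-0.40, adjusted p = 0.0353).

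Of the MuvB core genes and Foxm1, 4 of 6 were higher in tip and 0 in stalk, beside 26.1% and 22.5% of all tested genes. Foxm1, the forkhead factor that acts after B-Myb, had 24.7, 22.3 and 21.96 RPKM in the tip libraries and 6.89, 4.88 and 6.21 RPKM in the stalk libraries (log2 fold change 1.79, limma adjusted p = 2.78e-05). The MuvB subunit genes Lin54 (0.77), Rbbp4 (0.75) and Lin9 (0.70) rose less. Lin37 (-0.37) and Lin52 (0.32) were not called.

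Upstream of the E2F genes, 7 of 13 genes for G1 cyclins, kinases and inhibitors were higher in tip and 2 were higher in stalk. The background shares were 26.1% toward tip and 22.5% toward stalk. Ccnd1 (2.81) and Ccnd2 (1.80), which encode cyclins D1 and D2, and Skp2 (1.84), which encodes the ubiquitin ligase subunit that marks p27 for destruction, were higher in tip. Cdkn1c, which encodes the kinase inhibitor p57, was also higher in tip, at 32.4 ± 4.65 RPKM there and 14.5 ± 1.41 RPKM in stalk (log2 fold change 1.10, limma adjusted p = 0.000231). The cyclin D3 gene Ccnd3 went the other way, averaging 46.3 ± 7.31 RPKM in tip libraries and 112 ± 6.22 RPKM in stalk libraries (log2 fold change -1.27, limma adjusted p = 8.54e-05). Cdkn1a, which encodes the kinase inhibitor p21, had 6.46, 24.8 and 11.4 RPKM in the tip libraries and 49.0, 28.5 and 22.1 RPKM in the stalk libraries. Its groups overlapped and its call (-1.28, adjusted p = 0.0404) was lost without tip replicate 1 (-0.86, adjusted p = 0.121), tip replicate 3 (-1.22, 0.101), stalk replicate 1 (-0.97, 0.106) or stalk replicate 2 (-1.35, 0.0720), and with the replicate block (adjusted p = 0.0598).

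Other lists held genes tied to single E2F proteins. Of 12 partners of E2F6 in the Polycomb complex PRC1.6, 3 were higher in tip (Yaf2 at 0.70, Wdr5 at 0.58 and Hdac2 at 0.29) and 1 was higher in stalk (Rnf2 at -0.52), with a median of 0.24. The 3 of 12 are close to the background of 26.1% and are not a result about the list. The Hdac2 call was lost with the replicate block (adjusted p = 0.0758) and without tip replicate 1 (0.27, adjusted p = 0.0820), tip replicate 3 (0.27, 0.0845) or stalk replicate 3 (0.26, 0.0759). The count toward tip was 2 without tip replicate 1 or tip replicate 3 and 5 without tip replicate 2, and that toward stalk was 2 without stalk replicate 1. Of 5 germline genes known to be silenced by E2F6, 3 had values, none was tested, and the 3 summed to between 0.612 and 1.45 RPKM in tip and between 0.489 and 1.08 RPKM in stalk. Of the apoptosis genes activated by E2F1 in other settings, Pmaip1, which encodes Noxa, was higher in stalk (log2 fold change -1.63, limma adjusted p = 0.00825). Pmaip1 had 7.94, 21.97 and 13.5 RPKM in the tip libraries and 69.6, 42.0 and 28.4 RPKM in the stalk libraries. Of 7 multiciliation genes that E2F4 and E2F5 switch on in ciliated cells, 4 had values and only Foxj1 was tested, averaging 1.53 ± 0.163 RPKM in tip libraries and 2.56 ± 0.313 RPKM in stalk libraries (-0.49, limma adjusted p = 0.0277). That call was lost with the replicate block (adjusted p = 0.0634) and without stalk replicate 2 (-0.47, adjusted p = 0.0617), tip replicate 1 (-0.45, 0.0948), tip replicate 3 (-0.48, 0.0814) or stalk replicate 3 (-0.44, 0.0858).

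The genes whose profile over the 6 libraries lay nearest to a member were sought among 9156 tested genes that averaged 5 RPKM or more, by Euclidean distance between log2(RPKM + 1) values centred on each gene's mean. Nearest to E2f1 were Cdc45, a helicase subunit gene (distance 0.10), the kinetochore gene Spc24 (0.16) and the G1/S cyclin gene Ccne1 (0.18), where the median distance to E2f1 was 2.31. Nearest to E2f8 were the kinetochore gene Cenph (0.15), the spindle checkpoint kinase gene Ttk (0.17) and E2f7 (0.22), where the median was 2.54. Near to Mybl2 were the mitotic spindle gene Prc1 (0.12) and Arhgap19 (0.13), where the median was 1.59. All points share the same 6 libraries, and the difference between tip and stalk makes up most of each profile.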

How the data were processed

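The authors deposited 1 table of RPKM values with 93615 rows and 6 value columns, each named by a sample's title. Tools named in the submitters' processing notes are bcl2fastq 2.17, TopHat2 and Partek, with the mm10 build; annotation, settings and strand use are not given in the sources used here. Rows with question marks (24545) were dropped and RPKM was summed over the rows of each symbol. Of the values 79634 lay above 0 and below 1e-06 RPKM, so they are not steps of whole reads, depth is unknown and no counting interval is given. RPKM sums per library ran from 345123 to 366035.

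On log2(RPKM + 1), genes averaging 1 RPKM or more were tested by limma (version 3.58.1, R 4.3.3), using a variance trend and group as the only term, two-sided, Benjamini-Hochberg over 12532 genes, after a check on simulated data. Relative levels used exact permutation tests (scipy 1.17.1). Alternatives changed the pseudocount, filter, scaling, row choice, variance trend, block and libraries. Members and lists were chosen with earlier results of these data known. Named genes were all members, up to 4 called genes per list with the largest change, the 2 of highest level where fewer than 2 were called, genes against their list and 3 nearest profiles for E2f1, E2f8 and Mybl2. Others (Gins2, Slbp, Kif23, Cdkn1c and genes that were not called) were chosen after their values were seen. Positions are from GENCODE M21 and promoters from RefSeq, both of GRCm38. Some named items are not reported here.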

Additional observations from a re-analysis of the deposited data

How the results depend on the processing

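Over 15 alternatives, 148 fold changes of the 10 genes kept their sign, and 141 kept their side of the threshold. The 7 that did not were all of E2f6. Besides those given above, its adjusted p was 0.0806 with no filter on low values. The count of members higher in tip ranged from 7 (minimum mean of 5 RPKM, where fewer members were tested) to 9. The 110 recomputed differences from the targets kept their sign. The replicate numbers of the titles gave correlations of deviations of -0.30, -0.34 and 0.09 between same-numbered libraries and did not pair them, and with a replicate block 2716 genes were higher in tip and 2380 in stalk, with 9 members higher in tip. Median-ratio scaling gave 3081 and 3090 genes and moved the median of all genes by -0.04.

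Counts that moved by over 1.5 times were in small lists, and the cause was not tested. Pocket protein and DP genes higher in stalk numbered 1 with median-ratio scaling and 0 to 1 with 1 library left out, in place of 0. G1 regulators higher in stalk numbered 1 with no filter, no variance trend or the replicate block and 1 to 2 with 1 library left out, in place of 2. Apoptosis genes higher in tip numbered 2 with no filter, in place of 1. PRC1.6 genes higher in tip numbered 2 to 5 with 1 library left out and 5 without tip replicate 2 and stalk replicate 1, in place of 3. Those higher in stalk numbered 3 with median-ratio scaling, 2 with no filter, with a minimum mean of 5 RPKM, with the highest row per symbol or without tip replicate 2 and stalk replicate 1, and 1 to 2 with 1 library left out, in place of 1. Among the markers of other cells, endothelial genes higher in stalk numbered 3 with a minimum mean of 5 RPKM in place of 10, nephron progenitor genes higher in tip numbered 1 without tip replicate 2 or with the highest row per symbol, 0 with a minimum mean of 5 RPKM and 4 with no filter in place of 2, and immune genes higher in stalk numbered 2 without stalk replicate 1 in place of 1.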
